A study of Mus musculus with 11 samples.

Results

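The genes described here are 10 classical astrocyte marker genes, Aqp4, Gfap, Slc1a2, Slc1a3, Aldh1l1, Sox9, Glul, Atp1b2, Apoe and Mlc1, followed in RNA from sorted mPFC CRF1+ neurons. They were chosen by name from the 53465 genes of the count files, and all 10 were found under a single Ensembl identifier each. Adult male CRF1:GFP mice were used, a reporter line in which GFP marks cells that express the corticotropin-releasing factor receptor CRF1, and the sorted cells of the medial prefrontal cortex of each mouse made 1 library. The 5 withdrawn mice had breathed ethanol vapor in repeated cycles and were then kept without ethanol for several days, and the 6 naïve mice breathed air. Both groups received pyrazole, which blocks alcohol dehydrogenase, and the withdrawn mice were also injected with ethanol. For 3 of the 5 withdrawn mice, numbers 3, 4 and 5, another label reads control. Values without these 3 are given where a result rests on them. The design text of the series gives 5 control and 6 ethanol mice, whereas titles and treatments, which were followed here, give 6 and 5.

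Astrocytes tile the cortex, wrap synapses and blood vessels with fine processes, and clear glutamate and potassium from the extracellular space. They take up glutamate through dedicated transporters, convert it to glutamine and return it to neurons, and their vessel-facing endfeet are rich in water channels. In RNA from sorted neurons their marker genes report astrocyte RNA carried along with the sorted cells as well as whatever the neurons make themselves, and in such bulk libraries fewer astrocytes and less RNA per astrocyte cannot be told apart.

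Libraries were made from 160 pg of RNA per mouse and held between 7351567 and 22244869 counts on genes, a median of 16039548.5 in naïve and 13671076 in withdrawn mice. At these depths 3 counts correspond to 0.135 to 0.408 CPM, counts scaled to the library total. Levels given below are CPM on TMM-normalized library sizes. The library of naïve mouse 5 stood apart with 15585 genes detected and 5.77% of its reads outside exons, and that of withdrawn mouse 4 had 48.1% of its reads outside exons, the highest share of the 11. Naïve mouse 5 had 4 members at a count of 0, namely Aqp4, Gfap, Aldh1l1 and Mlc1. Crhr1, which encodes CRF1, ranged from 69.1 to 119 CPM in naïve and from 42.2 to 136 CPM in withdrawn mice. Slc17a7, of glutamatergic neurons, had medians of 1423 and 1425 CPM, and Gad2, of GABAergic neurons, 50.0 and 62.9 CPM.

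The upstream sequences of 4 members picked by name are shown, so that the letters before their start sites can be read beside their values. They are the 250 bases before the RefSeq start site on GRCm38.p6, written 5′ to 3′ on the strand of the gene, for Gfap at chr11:102897201-102897450 (minus), Slc1a3 at chr15:8710808-8711057 (minus), Apoe at chr7:19699189-19699438 (minus) and Glul at chr1:153899679-153899928 (plus). Apoe had 3 entries, of which the first was used. Mlc1 and Aldh1l1, which varied more than Glul on log2 CPM, are not printed. Capitals mark matches on either strand. The SOX core was searched as ACAAT, and the core of NFI factors as TTGGC. The STAT motif was searched as TTCNNNGAA, and the GC box of Sp1 as GGGCGG. The TATA box was searched as TATAAA, and no match overlapped another.
Gfap: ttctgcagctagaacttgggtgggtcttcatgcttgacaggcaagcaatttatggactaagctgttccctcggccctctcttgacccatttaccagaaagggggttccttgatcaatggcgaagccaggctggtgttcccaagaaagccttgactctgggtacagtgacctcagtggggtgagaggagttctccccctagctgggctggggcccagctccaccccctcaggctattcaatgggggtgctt
Slc1a3: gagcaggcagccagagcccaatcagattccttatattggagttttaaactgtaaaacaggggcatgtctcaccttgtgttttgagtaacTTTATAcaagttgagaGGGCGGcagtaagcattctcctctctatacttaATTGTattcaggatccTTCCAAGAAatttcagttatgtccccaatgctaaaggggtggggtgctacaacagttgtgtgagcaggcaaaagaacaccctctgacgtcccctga
Apoe: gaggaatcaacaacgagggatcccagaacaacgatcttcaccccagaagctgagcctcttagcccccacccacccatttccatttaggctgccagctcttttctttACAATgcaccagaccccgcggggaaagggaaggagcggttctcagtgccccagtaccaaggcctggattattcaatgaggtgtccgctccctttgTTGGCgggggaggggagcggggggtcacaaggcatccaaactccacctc
Glul: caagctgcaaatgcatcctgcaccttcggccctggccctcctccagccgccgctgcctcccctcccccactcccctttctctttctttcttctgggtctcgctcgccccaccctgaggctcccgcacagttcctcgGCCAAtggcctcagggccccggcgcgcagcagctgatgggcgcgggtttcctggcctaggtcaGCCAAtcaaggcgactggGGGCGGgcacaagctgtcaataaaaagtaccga

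The Gfap window held none of these letters. That of Slc1a3 held the SOX core, the STAT motif, the GC box and the TATA box, that of Apoe the SOX core and the NFI core, and that of Glul 2 NFI cores and a GC box. Of 32851 mouse promoters in the same window, 27.7% held the SOX core, 41.5% the NFI core, 7.02% the STAT motif, 32.7% the GC box and 12.4% the TATA box. No motif was shared by all 4 windows. A match describes letters only, and the absence of a match says nothing about the factor. The GC content of the windows was 55.6% for Gfap, 44.8% for Slc1a3, 57.2% for Apoe and 64.8% for Glul, against a median of 52.4% over all promoters.

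Withdrawn mice were compared with naïve mice to ask whether astrocyte markers changed in the sorted cells after chronic ethanol, and how far each gene varied between mice. No member passed the test, and every member overlapped between the groups. Of the 10 members, 8 passed the filter on low counts, 2 of them (Glul and Apoe) with a log2 fold change above 0, beside 51.8% of all tested genes, and 6 below 0, with a median of -0.17 against 0.02 over all 17093 genes tested. In edgeR's quasi-likelihood test their adjusted p ran from 0.758 to 0.995, and 0 of the 8 were called, which took an adjusted p no higher than 0.05 and a log2 fold change beyond 0.6, where 0.00585% of all tested genes were. At an unadjusted p under 0.05 the count was also 0 of 8, beside 7.22% of all tested genes, and the groups failed to overlap for 0 of 8 members, beside 0.948% (0.69% higher and 0.257% lower in withdrawn mice). DESeq2 called 0 of the 10, with a lowest adjusted p of 0.585, beside 1.66% of the genes it tested. Without the 3 mice with conflicting labels 0 of the tested members were called, but most values moved. In that fit the log2 fold change was -5.29 for Aqp4, -1.94 for Slc1a3, -1.34 for Aldh1l1, -1.08 for Sox9 and -0.53 for Slc1a2. Atp1b2 and Apoe turned to 0.16 and -0.56, and Glul was at 0.63. The fit kept only withdrawn mice 1 and 2. These had 2 and 0 counts of Aqp4, where a fitted fold change depends on the prior count and is no bound. Sox9 had the lowest unadjusted p of the members there, 0.0432 (adjusted p = 0.789 in edgeR). The share of all genes with an unadjusted p under 0.05 in that fit was not taken, so Sox9 is not singled out by it. Several of these genes varied widely between mice of the same group, as seen in the plot of all members by mouse.

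**Figure D1:**
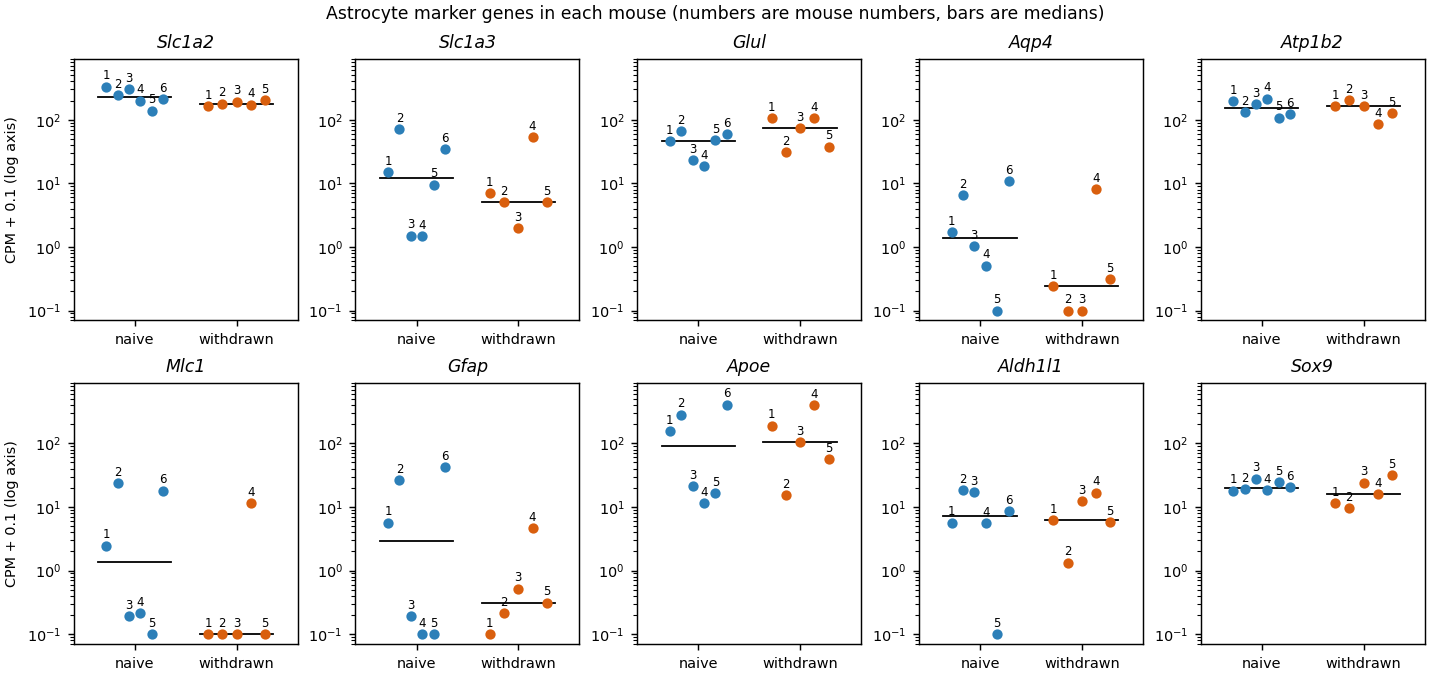
CPM plus 0.1 on a log axis for each of the 10 members, with a point per mouse (its number above it), 6 naïve mice in blue and 5 withdrawn mice in orange, and a bar at each median. Gfap and Mlc1 run from 0 to 41.6 and 23.7 CPM, while Slc1a2 and Atp1b2 stay within 85.0 to 333 CPM, and the groups overlap in every panel.

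The glutamate-handling members differed in how steady they were. Slc1a2 (chromosome 2 of GRCm38, 102658659 to 102790784, plus strand) encodes GLT-1, the main glutamate transporter of forebrain astrocytes. Its naïve values ran from 139.5 through a median of 227 to 333 CPM. The withdrawn mice, in order of number, had 164, 179.5, 193, 172 and 205 CPM, all inside the naïve range. The log2 fold change was -0.38 (SE 0.20, adjusted p = 0.758 in edgeR), and its unadjusted p of 0.0768 was the lowest of the members. The coefficient of variation was 30.0% over the naïve and 8.97% over the withdrawn mice. Exons of Gm13872 on the opposite strand cover 189 of its 13133 exonic bases, and whether counting used the strand is not given in the sources used here, so its count is uncertain to that extent.

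Slc1a3 (chromosome 15, 8634124 to 8710764, minus strand) encodes GLAST, the second astrocytic glutamate transporter. It ranged from 1.40 through a median of 12.2 to 70.6 CPM in naïve mice. The withdrawn values were 6.99, 4.92, 1.87, 53.1 and 4.95 CPM. Naïve mice 2 and 6 and withdrawn mouse 4 were far above all others, and the highest value of the 11 was 50.5 times the lowest. Its log2 fold change was -0.63 (SE 1.02, adjusted p = 0.949 in edgeR). It became -2.24 without withdrawn mouse 4 (adjusted p = 0.975 in edgeR) and 0.20 without naïve mouse 2.

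Glul (chromosome 1, 153899944 to 153909723, plus strand) encodes glutamine synthetase, which turns glutamate into glutamine. The naïve mice lay between 18.4 and 65.5 CPM with a median of 46.6. The withdrawn mice had 106, 30.8, 74.7, 105 and 37.7 CPM, so that mice 1, 3 and 4 were above every naïve mouse and mice 2 and 5 were inside the naïve range. Its log2 fold change of 0.72 (SE 0.39, adjusted p = 0.773 in edgeR) was the highest of the members and lay between 0.51 and 0.89 with any single mouse left out. Exons of other genes cover 93 of its bases on the same strand (Mir8114) and 116 on the opposite strand (Teddm2).

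Of the members that move water and ions, Aqp4 and Mlc1 were at or near 0 in many mice, and Atp1b2 was abundant in all. Aqp4 (chromosome 18, 15389496 to 15410982, minus strand) encodes the water channel of astrocyte endfeet. Its counts, rather than its CPM, show how little was there, with 15, 116, 10, 7, 0 and 172 counts in naïve mice 1 to 6. The withdrawn mice had 2, 0, 0, 65 and 3 counts. Naïve mice 2 and 6 and withdrawn mouse 4 were the highest, at 6.37, 10.6 and 7.99 CPM. The log2 fold change was -1.02 (SE 1.6, adjusted p = 0.947 in edgeR), and without withdrawn mouse 4 it was -5.08 (adjusted p = 0.735 in edgeR), with the remaining withdrawn mice at or below 3 counts, where a fitted fold change depends on the prior count and is no bound.

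Mlc1 (chromosome 15, 88955884 to 88979007, minus strand) encodes a membrane protein of astrocyte junctions that takes part in ion and volume control. Naïve mice 1, 2 and 6 had 2.36, 23.7 and 17.9 CPM, and naïve mice 3, 4 and 5 had 1, 2 and 0 counts. Withdrawn mouse 4 had 11.4 CPM, and the other 4 withdrawn mice had no counts at all. Mlc1 was below the filter for the edgeR test. A two-sided exact permutation test over all splits of the 11 mice gave p = 0.307 on log2 CPM, where the smallest p the design allows is 0.00216.

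Atp1b2 (chromosome 11, 69599736 to 69605942, minus strand) encodes the beta2 subunit of the sodium-potassium pump. It ranged from 108 through 155 to 215 CPM in naïve mice and was 165, 204, 164, 85.0 and 128 CPM in withdrawn mice. Withdrawn mouse 4, which was high for Aqp4 and Mlc1, had the lowest Atp1b2 of the 11. The log2 fold change was -0.09 (SE 0.24, adjusted p = 0.969 in edgeR).

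The cytoskeletal marker Gfap was clearly present in some mice and near 0 in others. Gfap (chromosome 11, 102887336 to 102900912, minus strand) encodes the astrocyte intermediate filament protein. Naïve mice 1, 2 and 6 had 5.58, 26.1 and 41.6 CPM, and naïve mice 3, 4 and 5 had 1, 0 and 0 counts. The withdrawn mice had 0, 1, 9, 37 and 3 counts, and mouse 4 stood highest among them at 4.55 CPM. Like Mlc1, Gfap was below the edgeR filter, and the exact permutation test gave p = 0.381 (two-sided). DESeq2, which did test it, gave an adjusted p of 0.587.

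Apoe (chromosome 7, 19696109 to 19699188, minus strand) encodes apolipoprotein E, the lipid carrier that astrocytes secrete. The naïve mice had 157, 282, 21.1, 11.5, 16.5 and 406 CPM, and the withdrawn mice 191, 15.3, 105, 399 and 56.2 CPM. High and low mice occurred in both groups, and the group medians were 89.2 and 105 CPM. The log2 fold change was 0.04 (SE 0.92, adjusted p = 0.995 in edgeR), and its sign turned in 9 alternative settings. It was 1.35 with a replicate block.

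Aldh1l1 (chromosome 6, 90486427 to 90600203, plus strand) encodes a folate enzyme widely used to label astrocytes. It had no count in naïve mouse 5 and 5.53 to 18.5 CPM in the other naïve mice. The withdrawn mice had 6.05, 1.23, 12.2, 16.7 and 5.66 CPM. The log2 fold change was -0.13 (SE 0.94, adjusted p = 0.988 in edgeR), and -0.38 without naïve mouse 5. Exons of Gm45901 on the same strand and Gm15756 on the opposite strand cover 105 and 499 of its 4516 bases.

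Sox9 (chromosome 11, 112782224 to 112787760, plus strand) encodes a transcription factor of the glial lineage. It was present in all mice, at 17.9 to 27.7 CPM in naïve mice (median 19.6) and at 11.2, 9.40, 24.0, 15.7 and 31.3 CPM in withdrawn mice. The log2 fold change was -0.21 (SE 0.35, adjusted p = 0.949 in edgeR). It was -0.50 without withdrawn mouse 5 and -0.04 without withdrawn mouse 2, and -1.08 without the 3 mice with conflicting labels. The withdrawn mice reached both below and above the naïve range, and the 2 lowest values of the 11 were those of withdrawn mice 1 and 2.

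**Figure D2:**
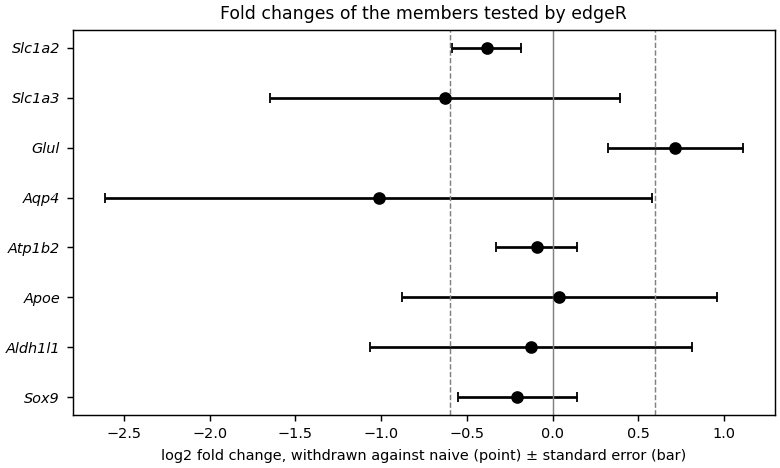
Log2 fold change of withdrawn against naïve mice (points) with its standard error (bars) for the 8 members tested by edgeR, with a solid line at 0 and dashed lines at the threshold of 0.6 in either direction. Slc1a2, Atp1b2 and Sox9 have standard errors of 0.20 to 0.35, and Aqp4 has the widest, 1.6.

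The spread of each gene was set beside that of genes of like abundance. The biological coefficient of variation fitted by edgeR was above the median of the 1000 tested genes nearest in abundance for 7 of the 8 members. For 4 members it was above the 90th percentile, namely Apoe (99.5th), Aqp4 (97.8th), Slc1a3 (95.6th) and Glul (94.2th). Sox9 lay at the 31.5th percentile, and Slc1a2 and Atp1b2 at the 62.4th and 80.8th. The value for Apoe was 0.978, against a window median of 0.250.

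Per kilobase of exon, which allows levels of different genes to be compared, Apoe had the highest mean over the 11 mice, 70.6 CPM per kb. It was followed by Atp1b2 (37.9 CPM per kb), Glul (16.8) and Slc1a2 (16.2). Lower levels were found for Sox9 (4.81 CPM per kb), Slc1a3 (2.18), Aldh1l1 (1.95), Mlc1 (1.80), Gfap (1.70) and Aqp4 (0.413). Neighbours in this order overlapped over the mice except Slc1a2 and Sox9, whose lowest and highest mice were at 10.6 and 7.58 CPM per kb. This is an order of means over all mice, and single mice departed from it. Gfap was at 6.18 and 9.87 CPM per kb in naïve mice 2 and 6, above the 4.59 and 4.90 CPM per kb of Sox9 in the same mice.

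Whether the members moved together was asked over the 11 mice. They did so only in part, with a set of genes high in the same mice and others that followed in part or not. The 4 highest mice were the same for Aqp4, Gfap, Slc1a3 and Mlc1, namely naïve 1, 2 and 6 and withdrawn 4. Apoe shared naïve 2 and 6 and withdrawn 4 with them, and had withdrawn 1 in place of naïve 1. Slc1a2 shared naïve 1, 2 and 6 with them, and had naïve 3 in place of withdrawn 4. For Glul, Atp1b2, Aldh1l1 and Sox9 the 4 highest mice were other sets, though Glul correlated with Apoe, as given below. Since Gfap and Mlc1 had 7 mice at or near 0 and 4 above, no correlation coefficient is given for them.

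Of the 45 pairs of members, 32 had a Pearson r of log2 CPM above 0, and 9 had a permutation p of at most 0.05 after Benjamini-Hochberg adjustment over the pairs. Of these, 7 included Gfap or Mlc1. The remaining 2 were Glul with Apoe and Slc1a3 with Apoe. For Glul with Apoe, r was 0.816 (permutation p = 0.00274, adjusted p = 0.024) and Spearman's rho 0.755 (permutation p = 0.0103, adjusted p = 0.154). Without naïve mouse 4 and withdrawn mouse 1, the 2 mice farthest from the Glul median, r was 0.773, and within the naïve mice it was 0.803 (exact permutation p = 0.0583, n = 6).

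For Slc1a3 with Apoe, r was 0.755 (permutation p = 0.00993, adjusted p = 0.0496) and rho 0.791 (permutation p = 0.00564, adjusted p = 0.127). It was 0.639 without naïve mouse 2 and withdrawn mouse 4, and 0.875 within the naïve mice (exact permutation p = 0.0264, n = 6). This pair passed in 3 of 16 alternative settings, Glul with Apoe in 11 and Aqp4 with Mlc1 in all 16. The settings share most of their mice and are not independent. Mlc1 had no count in 1 naïve and 4 withdrawn mice, and Aqp4 in 1 naïve and 2 withdrawn mice. Their pair thus rests in part on which mice had any counts. By Spearman's rho the number of pairs called was 1, Aqp4 with Mlc1. With mice left out in turn the count fell from 9 to 1 without naïve mouse 1, to 4 without naïve mouse 4 or 6, and to 5 without naïve mouse 2 or withdrawn mouse 2, 4 or 5, and it was 2 without the 3 mice with conflicting labels.

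The member furthest from the others was Atp1b2. Its r with Slc1a3 was -0.643 (permutation p = 0.0339, adjusted p = 0.127), with a rho of -0.645 (permutation p = 0.0369, adjusted p = 0.184), so the pair did not pass. It was -0.485 without naïve mouse 2 and withdrawn mouse 4, and -0.598 within the naïve mice (exact permutation p = 0.218, n = 6). The median r over the 45 member pairs was 0.298, and 0.124 over the pairs of the 8 members that passed the filter. Over all pairs of tested genes it was 0.028, and over the wider list of other astrocyte genes 0.109. This list and those that follow kept only tested genes, so 0.124 is the value of the members to set beside them. Markers of other cells had medians of 0.797 (endothelial), 0.780 (fibroblast), 0.643 (GABAergic), 0.501 (excitatory), 0.498 (pericyte and smooth muscle), 0.359 (oligodendrocyte precursor), 0.0338 (oligodendrocyte) and -0.0963 (microglia).

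**Figure D3:**
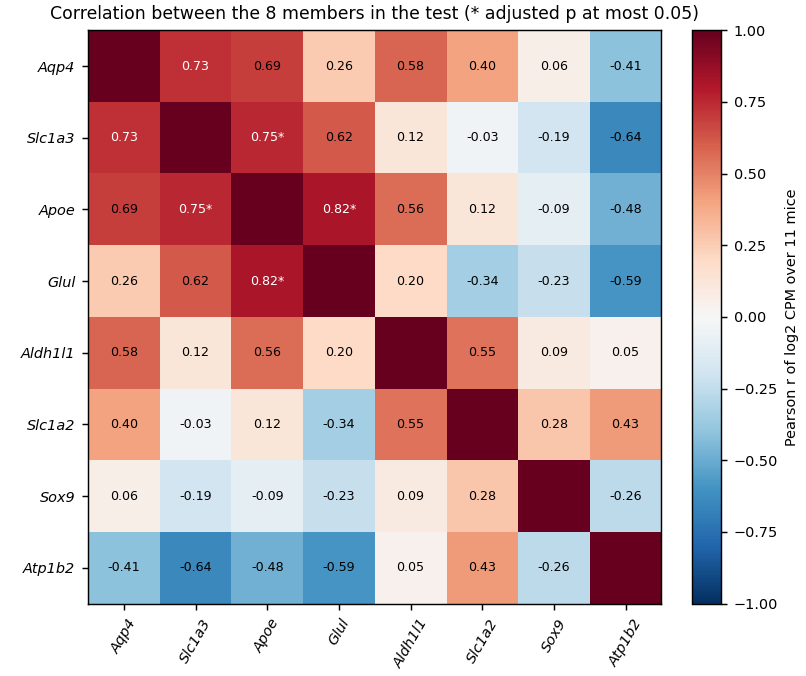
Pearson r of log2 CPM over the 11 mice for each pair of the 8 members in the test, with an asterisk at an adjusted permutation p of at most 0.05 over all 45 pairs. Slc1a3 with Apoe (0.755) and Glul with Apoe (0.816) carry an asterisk, and Atp1b2 is negative with Slc1a3 (-0.643).

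The members were also set against 4 measures of each library, namely depth, genes detected, reads outside exons and mitochondrial share. Of these 40 relations 0 passed at an adjusted permutation p of at most 0.05 and 3 had an unadjusted p under 0.05. The lowest adjusted p was 0.208, for Aldh1l1 with genes detected, where r was 0.797 (permutation p = 0.00519) and rho 0.545 (permutation p = 0.0886, adjusted p = 0.678). That r was 0.398 without the 2 mice with the most extreme number of genes detected, so the relation rested on them.

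Endothelial markers, taken as a sum, were high in the same mice as Gfap. The sum of 10 endothelial markers was 689, 663, 118, 46.0, 9.96 and 993 CPM in naïve mice 1 to 6, and 228, 150.2, 167, 1052 and 144 CPM in withdrawn mice 1 to 5. Its 4 highest mice were those of Gfap, Mlc1, Aqp4 and Slc1a3, which holds for the sum and not for every gene in it. The sum of 10 pericyte and smooth muscle markers had withdrawn mouse 1 (52.4 CPM) in place of naïve mouse 1 (43.8 CPM) among its 4 highest. In naïve mouse 5, 7 of the 10 endothelial markers were at 0, among them the defining genes Cldn5, Flt1 and Cdh5. Gfap, Mlc1 and Aqp4 were at 0 there too. That mouse had the fewest genes detected, 15585, and its zeros were spread over other lists as well. They took in 9 of 10 oligodendrocyte precursor markers, 7 of 10 fibroblast markers and 19 of 30 reactive astrocyte genes, but 0 of 10 excitatory neuron markers. Apoe in that mouse was 16.5 CPM, near its 11.5 CPM in naïve mouse 4 and 15.3 CPM in withdrawn mouse 2.

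Markers of fibroblasts had another pattern. Their sum over 10 genes lay between 25.3 and 149 CPM in naïve mice and was 2874, 82.9, 1515, 2472 and 655 CPM in withdrawn mice. Of these genes 9 were tested, all with a log2 fold change above 0, beside 51.8% of all tested genes. EdgeR called 0 of them, beside 0.00585%. At an unadjusted p under 0.05, 7 were higher, beside 5%, and 0 lower, beside 2.22%. DESeq2 called 5 higher and 0 lower, beside 1.66% of the genes it tested in either direction. Of the 362 genes DESeq2 called, 342 were higher and 20 lower. Dcn, the matrix proteoglycan decorin, was the only 1 of the 9 without overlap, beside 0.69% of all tested genes in that direction. It was at 0 to 5.22 CPM in naïve and 5.26 to 50.8 CPM in withdrawn mice. Its log2 fold change was 3.20 (SE 0.89, adjusted p = 0.265 in edgeR and 0.00891 in DESeq2). The withdrawn mice with the highest Glul, numbers 1, 3 and 4, also had the highest fibroblast sums. In naïve mice the order differed, with the highest fibroblast sum, 149 CPM, in naïve mouse 4, which had the lowest Glul, 18.4 CPM. The sum of 10 excitatory neuron markers was 10541 to 12903 CPM in naïve and 6616 to 11076 CPM in withdrawn mice, lowest in withdrawn mouse 4. The sum of the 10 members themselves ran from 345 to 929.6 CPM in naïve and from 446 to 872 CPM in withdrawn mice. The part of other cells in the spread of the members was not tested.

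**Figure D4:**
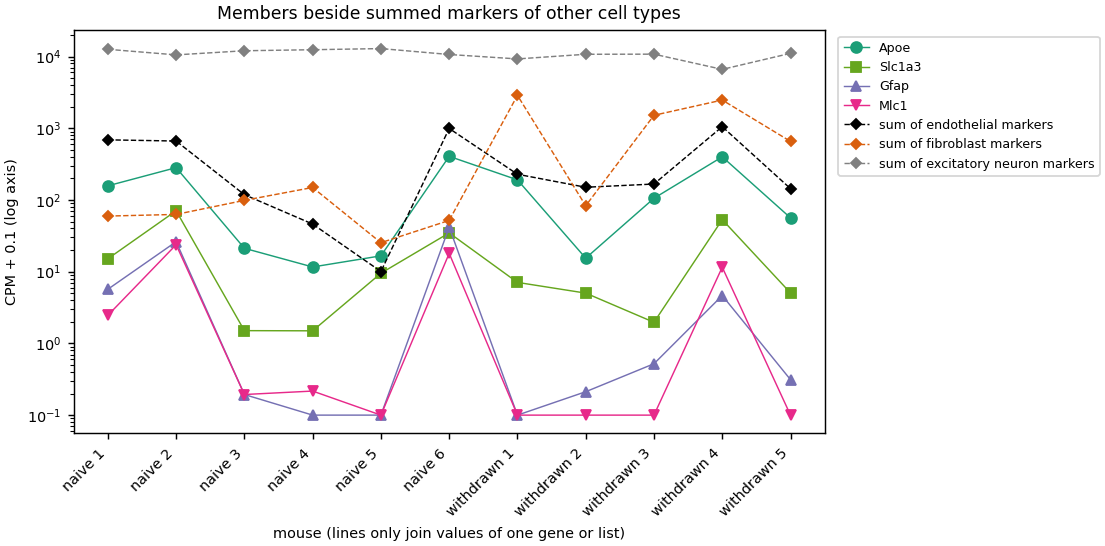
CPM plus 0.1 on a log axis in each of the 11 mice for Apoe, Slc1a3, Gfap and Mlc1 (solid lines) and for the summed markers of endothelial cells, fibroblasts and excitatory neurons (dashed lines). Endothelial markers peak at 689, 663, 993 and 1052 CPM in naïve 1, 2 and 6 and withdrawn 4, where Gfap and Mlc1 are highest, and fibroblast markers peak in withdrawn 1, 3 and 4.

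The genes outside the members that varied most like them were found by correlating each of 11827 tested genes, with a mean of at least 5 CPM, with the mean standardized log2 CPM of the members as deviations from the group means over the 11 mice. The 10 nearest were Igfbp7 (r = 0.967), Pltp, Itih5, Paqr5, Cavin2, Esyt1, Tmem204, Epas1, Col5a1 and Sst (r = 0.934). Igfbp7, a secreted binding protein, had 61.4, 71.3, 23.4, 4.78, 6.70 and 79.9 CPM in naïve mice 1 to 6 and 14.0, 6.38, 15.6, 65.7 and 16.9 CPM in withdrawn mice. Pltp, a phospholipid transfer protein, was at 147, 141, 165 and 136 CPM in naïve 1, 2 and 6 and withdrawn 4, with far lower values in the other mice. Sst, the neuropeptide of an interneuron class, was at 699, 473 and 289 CPM in naïve 1, 2 and 6 and 32.6 CPM in withdrawn 4, with 23.3 CPM as the highest of the others. These r are descriptions, since the genes were picked for them and each library is shared by all genes.

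A wider list of 35 astrocyte genes was described beside the members. Of its genes 28 were tested, 14 with a log2 fold change above 0 and 14 below, and 0 were called by edgeR (0.00585% of all genes). At an unadjusted p under 0.05, 7 were higher, beside 5% of all tested genes, and 4 lower, beside 2.22%. DESeq2 called 2 higher (Plpp3 and Gjb6) and 1 lower (Slc25a18), beside 1.66% of all genes it tested. The 5 most abundant were Sparcl1, Clu, Ttyh1, Mt3 and Plpp3. Plpp3, a lipid phosphatase, had naïve values of 5.21 to 38.3 CPM and withdrawn values of 3.81 to 549.8 CPM (log2 fold change 3.55, SE 0.80, adjusted p = 0.137 in edgeR and 0.00069 in DESeq2). Mt3, a metallothionein of brain, was at a median of 153 CPM in naïve and 109.7 CPM in withdrawn mice (log2 fold change -0.62, SE 0.23, adjusted p = 0.499 in edgeR). Clu had medians of 445 and 410.2 CPM, a log2 fold change of -0.08 (SE 0.16). The lowest value of these 5 in any mouse was 3.81 CPM, but they were picked for their abundance. Other genes of the list were at 0 in some mice, 18 of the 35 in naïve mouse 5.

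Of 30 genes known to rise in reactive astrocytes, 24 were tested, 15 with a log2 fold change above 0 (beside 51.8% of all tested genes) and 9 below, with a median of 0.70 and 0 called by edgeR. At an unadjusted p under 0.05, 7 were higher, beside 5%, and 1 lower, beside 2.22%. DESeq2 called 4 higher, Sphk1, Fkbp5, Steap4 and Timp1, and 0 lower, beside 1.66% in either direction. The most abundant was S100a10, a calcium-binding protein family member, with medians of 78.0 and 115 CPM (log2 fold change 0.17, SE 0.30, adjusted p = 0.954 in edgeR). Sphk1, a sphingosine kinase, was the only one of the 24 without overlap between groups, beside 0.69% of all tested genes in that direction. It ran from 0.988 to 4.19 CPM in naïve mice and from 6.38 to 30.5 CPM in withdrawn mice (log2 fold change 2.82, SE 0.58, adjusted p = 0.105 in edgeR). Fkbp5, which glucocorticoids induce in many cells, had medians of 32.2 and 158 CPM (log2 fold change 2.16, SE 0.55, adjusted p = 0.214 in edgeR). Gfap, a classical reactive gene as well as a marker, had its highest values in naïve mice.

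Of 15 glutamate and glutamine handling genes outside the members, all were tested, 4 with a log2 fold change above 0 (beside 51.8% of all tested genes) and 11 below, with a median of -0.15 and 0 called by edgeR. At an unadjusted p under 0.05, 1 was higher, beside 5%, and 1 lower, beside 2.22%. DESeq2 called 1 higher, Slc38a2, and 0 lower, beside 1.66% in either direction. Slc38a2, a glutamine transporter of neurons and other cells, ran from 41.8 to 156 CPM in naïve mice and from 78.7 to 2046 CPM in withdrawn mice (log2 fold change 3.34, SE 0.61, adjusted p = 0.0883 in edgeR). DESeq2 gave it an adjusted p of 1.4e-05. Among the members of the same route, Slc1a2, Slc1a3 and Glul had adjusted p of 0.758, 0.949 and 0.773 in edgeR.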

How the data were processed

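RNA of sorted mPFC CRF1+ neurons from 6 naïve and 5 withdrawn mice was sequenced. The authors trimmed reads (cutadapt), mapped them (STAR) to GRCm38 and counted them per Ensembl gene (HTSeq). The deposited values are raw counts, neither normalized nor pooled. The authors' technical rows (reads outside exons, ambiguous, multimapped) stayed out of library sizes, and reads on genes made up 42.0% to 81.1% of the reads tallied. Groups follow title and treatment, which conflict with another label for 3 withdrawn mice and with the group sizes in the series design text. Symbols and coordinates came from GENCODE M21, and promoters from RefSeq. Promoters were matched by symbol for 7 of 10 members.

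Counts were tested with edgeR 4.0.16 in R 4.3.3 by the quasi-likelihood test, after TMM normalization and filterByExpr by group (minimum count 10, total 15), with Benjamini-Hochberg adjustment over all genes. Calls needed an adjusted p no higher than 0.05 together with a log2 fold change beyond 0.6. A standard error is the size of a log2 fold change divided by the square root of its F. Log2 CPM used a prior count of 2. Correlations used 100000 permutations. DESeq2 1.42.0 was an alternative, as were other normalizations, filters, covariates, a replicate block, and mice left out in turn. Scripts were tested on simulated data. Depth was 7351567 to 22244869 counts per mouse, and floors cover only the error of counting, as reads of amplified cDNA are not independent.

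By the naming rule, genes described are all members, the 5 most abundant of the other astrocyte genes, the 2 most abundant of each other list, any called or completely separated gene of a list, the 10 genes most like the members (mean of at least 5 CPM), and Crhr1, Slc17a7 and Gad2 as a check of the sort. Lists given as sums have only genes at 0 or without overlap named. Gjb6, Slc25a18, Steap4 and Timp1 were named after their DESeq2 calls were seen. The members and lists were chosen with earlier results of these data known. The exact tests of Gfap and Mlc1 were chosen after they were seen to fall below the filter. Dlx6os1, carried by 2 identifiers, was left out of the GABAergic markers. The fit with reads outside exons as covariate and the alternatives for library measures were chosen after seeing the data. No libraries were duplicates, with a lowest chi-square of 25.6 per degree of freedom between mice of 1 group.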

Additional observations from a re-analysis of the deposited data

Results flagged for a closer look

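Gaps between a mouse and its own group were checked for the members and 4 library measures in 28 sets. Of these, 3 had an extreme mouse by Dixon's criterion at the 95% level, where chance gives about 1.4 for independent, normally distributed values. All 3 rest on values at or near a count of 0, and the sets share their libraries, so the flags are descriptions only. Withdrawn mouse 4 stood above the other 4 withdrawn mice for Aqp4, with a log2 CPM of 3.02 against -1.49 as the next highest. The same mouse stood above them for Mlc1, at a log2 CPM of 3.53 against -2.80 in each of the others, which had no counts. Naïve mouse 5 stood below its group for Aldh1l1, with a log2 CPM of -2.80, the value of a count of 0, against 2.51 as the next lowest.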

How the results depend on the processing

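Over all genes edgeR called 1 gene, which became 362 with DESeq2's Wald test, 137 with no filter, 30 with at least 10 counts in every mouse, 26 with genes detected as covariate and 0 without the 3 mice with conflicting labels. It was 0 with the share of reads outside exons as covariate, a fit added after seeing the data. With each mouse left out it ran from 0 to 193, with 193 without withdrawn mouse 2, 6 without naïve mouse 2, 1 without naïve mouse 4, and 0 without each of the others. Same-numbered mice are different animals and did not deviate together (correlations -0.20 to 0.18), and a replicate block gave 0 calls and turned Aldh1l1 to 0.46 and moved Apoe from 0.04 to 1.35. The members in the test gave 153 values under alternatives, of which 0 were called, 18 changed sign, and the lowest adjusted p was 0.395 (edgeR or DESeq2). Apoe turned to -0.026 with no filter, -0.56 without the 3 mice, -0.57 with genes detected as covariate and -0.50 with reads outside exons. The last 2 fits moved Aqp4 from -1.02 to -4.46 and -4.54 (unadjusted p of 0.0299 and 0.031, adjusted p of 0.568 and 0.863 in edgeR). Withdrawn mice other than number 4 had at most 3 counts of Aqp4. The share of all genes with an unadjusted p under 0.05 in these fits was not taken. The same 2 fits moved Slc1a3 from -0.63 to -1.53 and -2.19, and without the 3 mice Sox9 moved from -0.21 to -1.08. Aldh1l1 turned to 0.10 with genes detected as covariate, and Atp1b2 to 0.16 without the 3 mice. With a mouse left out, Aqp4 ran from -5.08 to -0.73, Sox9 from -0.50 to -0.04, Slc1a3 ran from -2.24 to 0.20, Aldh1l1 from -0.52 to 0.20, Apoe from -0.70 to 0.65 and Atp1b2 from -0.24 to 0.058. Of the member pairs, 9 were called, 2 without the 3 mice, 1 by Spearman's rho and between 1 and 11 with a mouse left out. Their median correlation of 0.298 was 0.446 in naïve mice only. The causes were not tested. Counts of 3 or fewer in several mice limit what can be seen of Gfap, Mlc1 and Aqp4 at this depth.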
